A study of Mus musculus with 6 samples.

Results

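Fibronectin, the secreted matrix glycoprotein Fn1, and 9 subunits of its and related integrin receptors were followed in mouse neural stem cells in which Cre recombinase had been delivered to switch on mutant IDH. The 10 genes were taken by name, as all probe sets whose only annotated symbol was Fn1, Itga3, Itga5, Itga6, Itga7, Itgav, Itgb1, Itgb3, Itgb5 or Itgb8. All 10 were measured, by 251 of the array's 269751 probe sets, and each was summarised to 1 value per array among 23152 genes. The cells were cortical neural stem cells of embryonic day 14.5, kept as cell lines 2, 7 and 8. Each line was split into a control culture, given adenoviral green fluorescent protein (Ad-GFP), and a culture given adenoviral Cre recombinase (Ad-Cre). Virus was used at 100 MOI, the number of infectious units per cell, and washed off at 24 hours. Both viruses went into the same lines, so the control cultures carried the same inducible allele, which the series title gives as IDH1-R132H. The sources used here do not state the mouse strain, the structure of the allele or the number of embryos behind each line. A description label runs opposite to the titles and transduction labels in line 8. The titles were followed, and with the line 8 labels exchanged the mean difference was 0.68 log2 units for Fn1 and 0.53 for Itga5. Across genes, which are not independent replicates, the line 8 difference under the titles had an r of 0.397 with that of line 2 and 0.556 with that of line 7. Lines 2 and 7 had an r of 0.371, and the exchange turns the sign of the former pair of values. No culture had Cre without the mutant allele, so the effects of Cre and of mutant IDH cannot be told apart.

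Integrins are paired receptors of 1 alpha and 1 beta subunit that bind matrix outside the cell and adaptor proteins of the actin skeleton inside it. The pair of Itga5 and Itgb1 is the classical fibronectin receptor and drives fibronectin into fibrils. Itgav with Itgb3 or Itgb5 binds fibronectin and vitronectin, Itgav with Itgb8 activates latent TGF-beta, and Itga3, Itga6 and Itga7 pair with Itgb1 to bind laminins. In the embryonic cortex laminin receptors hold the end feet of radial glia to the basement membrane at the brain surface.

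Values are log2 signals, so a difference of 1 is a doubling. The viruses were compared within a gene or within the summed signal of a marker list. Levels of different genes were set side by side only to mark which signals were low. All 10 of 10 neural stem cell markers were above the lower quartile of all genes, with Sox2 at 13.22 and Nes at 11.93 as Ad-GFP means. All measured markers of astrocytes (6), neurons (6) and the oligodendrocyte lineage (7) were above it as well. With Ad-Cre, 4 of the 10 stem cell markers were lower and 0 higher at an unadjusted p under 0.05 by limma, where 5.58% of all genes were lower. Of these markers, 0 passed the adjusted p. The differences were -1.31 for Prom1, -0.48 for Msi1, -0.28 for Pax6 and -0.12 for Fabp7. The number lower was 2 without line 7 and 1 without line 8. The Ad-Cre array of line 2 stood apart from the others, correlating with them across genes at r of 0.969 to 0.976, against 0.988 to 0.996 among the other 5 arrays. In line 2, 1249 genes differed by more than 1 log2 unit between the viruses, against 380 in line 7 and 252 in line 8. Values without line 2 are therefore given beside the 10 genes' results and wherever leaving it out changed the value of a named gene by over 1.5 times. No gene had an adjusted p under 0.05 in the limma fit over all 3 lines (0% of 23152 genes), so none of the 10 was called there.

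Fibronectin and its receptor subunit Itga5 had the largest mean differences of the 10 genes, both higher with Ad-Cre in all 3 lines. Fn1 averaged 2.92-fold and Itga5 2.41-fold higher. The laminin receptor subunit Itga3 was also higher in every line by a smaller amount, Itgb8 was lower in every line, and the other 6 subunits did not share 1 direction over the lines. At an unadjusted p under 0.05 there were 3 higher genes (Fn1, Itga5 and Itga3) and 1 lower gene (Itgb8) among the 10, where 7.04% of all genes were higher and 5.58% lower. Without line 2 the counts were 5 higher and 2 lower, and without line 7 or without line 8 there were 0 lower. The share of all genes at that p was counted only over all 3 lines. Counts at that p with a line left out, here and below, therefore have no share beside them. Over all genes 22.1% were higher in every line, 16.2% lower in every line and 61.7% of opposite direction between lines. The same 4 genes had Ad-Cre arrays that did not overlap the Ad-GFP arrays, which held for 12% of all genes as higher and 8.89% as lower. The median difference was 0.10 over the 10 genes and 0.025 over all genes. Without line 2, Fn1, Itga5 and Itgb8 passed an adjusted p of 0.05, a fit in which 2.66% of all genes passed as higher and 2.57% as lower. That fit holds lines 7 and 8 alone, so its variance rests on their differences and on the moderation over genes. Line 2 was singled out after its Ad-Cre array was seen to stand apart.

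**Figure D1:**
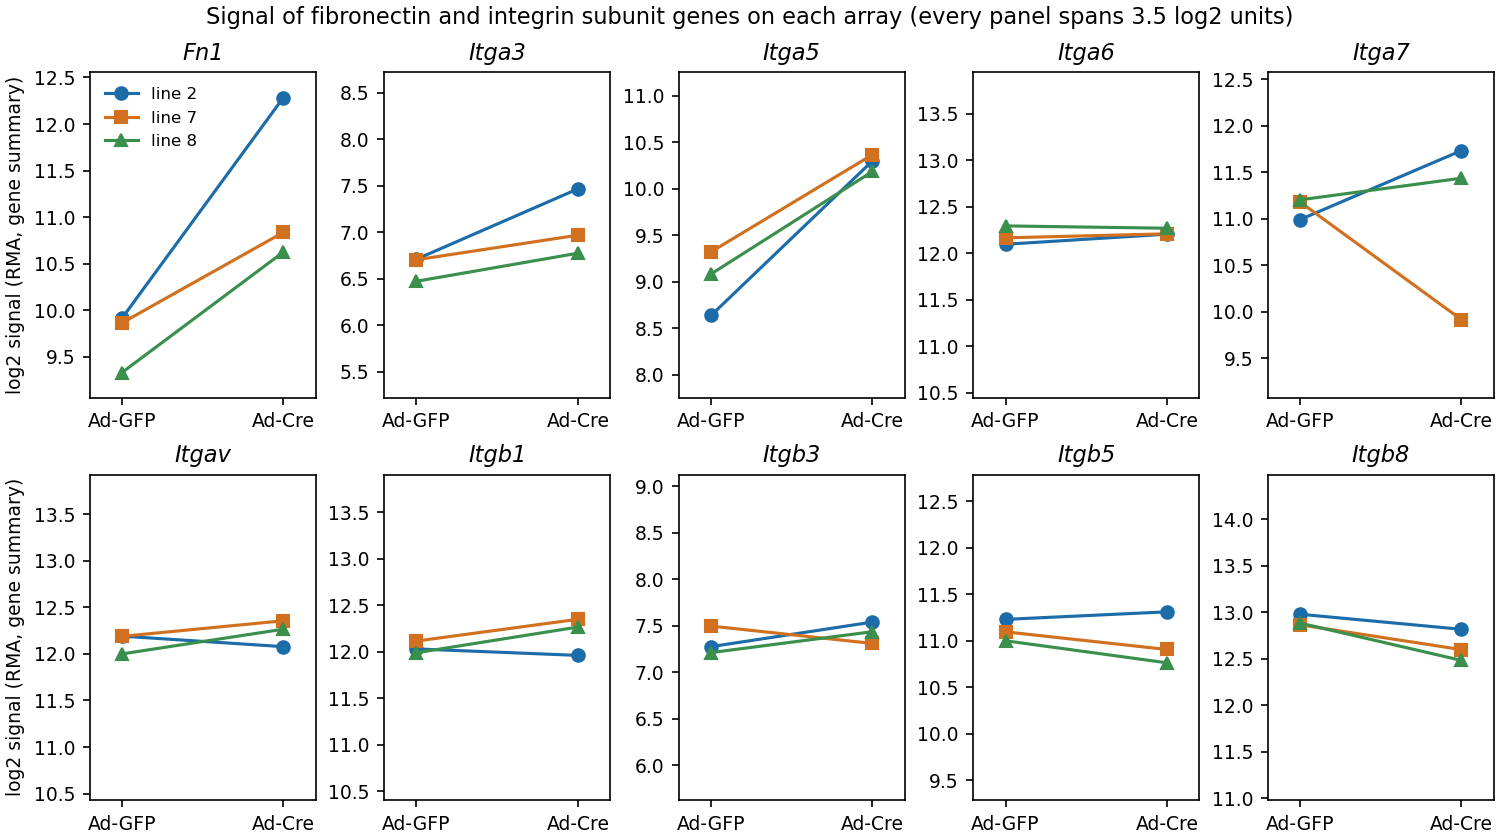
Log2 signal of each of the 10 genes on each array, with the Ad-GFP and Ad-Cre cultures of a line joined (circles line 2, squares line 7, triangles line 8); each panel spans 3.5 log2 units around its own middle. The joined pairs of Fn1 and Itga5 slope up in all 3 lines and those of Itgb8 slope slightly down, while Itga7 slopes up in lines 2 and 8 and down in line 7.

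Fn1 encodes the fibronectin chain, which cells secrete as a dimer and assemble into fibrils through their integrins. It read 9.91, 9.86 and 9.33 on the Ad-GFP arrays of lines 2, 7 and 8, and 12.28, 10.84 and 10.62 on the Ad-Cre arrays. Every Ad-Cre array was above every Ad-GFP array, and the line 2 Ad-Cre array was the highest of all. The mean went from 9.70 ± 0.32 (SD, n = 3) to 11.25 ± 0.90, a difference of 1.55 ± 0.28 log2 units (SE; 95% interval 0.81 to 2.28; limma adjusted p = 0.149). The difference was 2.37, 0.97 and 1.30 in lines 2, 7 and 8, and lines 7 and 8 lay close together on the Ad-Cre arrays. Without line 2 it was 1.13 ± 0.11 (SE; adjusted p = 0.00348). Of all 23152 genes, 21 had a larger positive mean difference.

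The probe sets of Fn1 read the same way throughout. All 41 were higher with Ad-Cre in all 3 lines, where 17.5% of the array's probe sets were. An unadjusted p under 0.05 was found for 40, and 0 passed the adjusted p. The share of all probe sets at the unadjusted p was not counted, here or for the genes below. Their mean differences ran from 0.79 to 2.77 with a median of 1.54, and the brightest probe set read 1.35. Within lines the probe set medians were 2.40, 0.94 and 1.25 in lines 2, 7 and 8. Probe sets of 1 gene share its RNA and are not replicates. Which exon each probe set reads, and so whether the alternatively spliced segments of fibronectin differ from the rest, is not stated in the sources used here.

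Itga5 encodes the alpha subunit that is particular to the fibronectin receptor. It read 8.64, 9.32 and 9.08 with Ad-GFP in lines 2, 7 and 8, and 10.30, 10.37 and 10.18 with Ad-Cre. The lines were spread over the control arrays and lay close together on the Ad-Cre arrays, with no overlap between the viruses. The means were 9.01 ± 0.35 (SD, n = 3) and 10.28 ± 0.09, a difference of 1.27 ± 0.16 log2 units (SE; 95% interval 0.87 to 1.67; adjusted p = 0.0929). Line 2, lowest of the lines with Ad-GFP, had the largest difference at 1.66, and lines 7 and 8 read 1.04 and 1.10. Without line 2 the difference was 1.07 ± 0.09 (SE; adjusted p = 0.00274). With the line as a random block, which uses the same 6 arrays, Itga5 passed as well (adjusted p = 0.0337).

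Of the 19 probe sets of Itga5, 18 were higher in every line, where 17.5% of the array's probe sets were. The same number had an unadjusted p under 0.05, and 0 passed the adjusted p. The remaining one was also the dimmest, below the lower quartile of probe set signals, and read -0.37. The size of the difference depended on the probe set, since the brightest read 0.67 against a median of 1.41 over the 19. The highest mean difference of a probe set was 2.41. That probe set read 4.58, 1.27 and 1.39 in lines 2, 7 and 8. Its Ad-GFP array of line 2 was low, at 4.89 against 8.30 and 8.35 in lines 7 and 8.

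**Figure D2:**
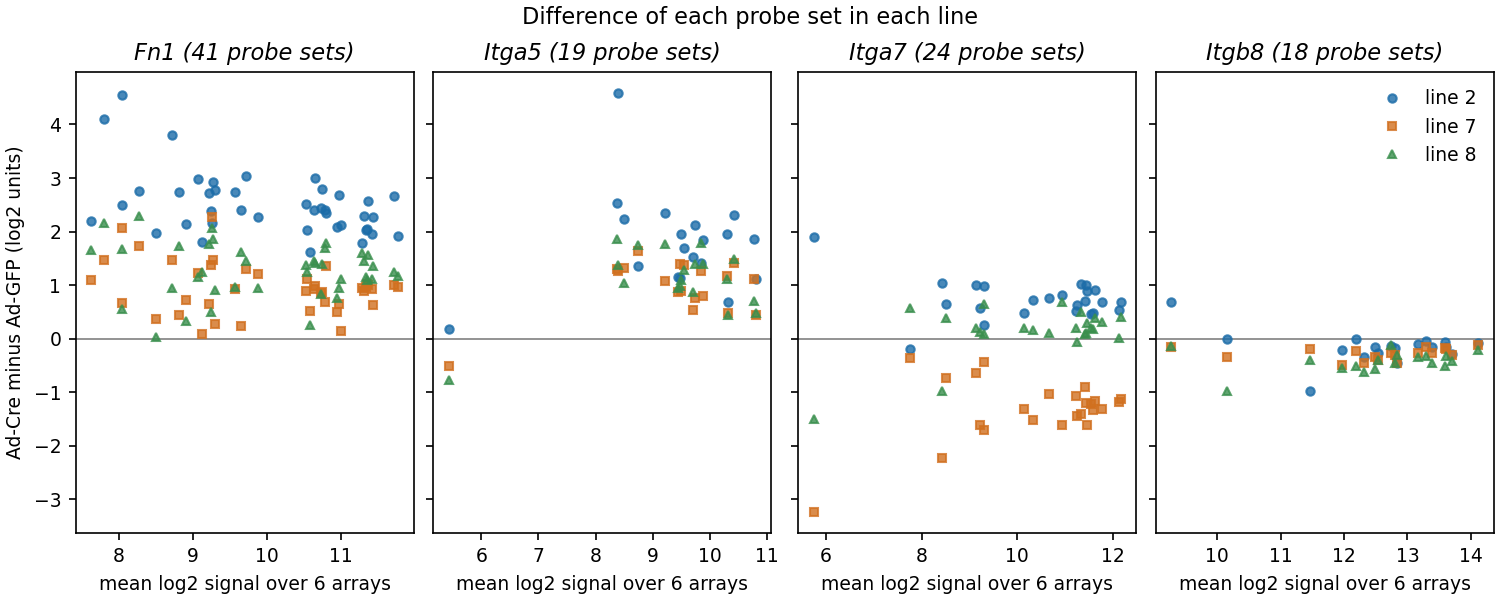
Ad-Cre minus Ad-GFP difference of every probe set of 4 genes in each line (vertical axis, log2 units) against its mean signal over the 6 arrays (horizontal axis, log2). All 41 Fn1 probe sets lie above 0 in each line, the 24 Itga7 probe sets lie below 0 in line 7 and mostly above it in lines 2 and 8, and 17 of 18 Itgb8 probe sets lie below 0 in all 3 lines.

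Itgb1, the beta subunit of the fibronectin receptor and the partner of most of the alpha subunits here, read 12.03, 12.11 and 11.99 with Ad-GFP in lines 2, 7 and 8 and 11.96, 12.35 and 12.26 with Ad-Cre. It was slightly lower in line 2 and higher in lines 7 and 8, and the groups overlapped. The difference was 0.15 ± 0.10 (SE; 95% interval -0.10 to 0.40; adjusted p = 0.576), and without line 2 it was 0.25 ± 0.06 (adjusted p = 0.0615). Of its 19 probe sets, 6 were higher in every line and 0 lower in every line. The upper bound of its interval lay below the lower bound of the interval of Itga5. Whether Itga5 and Itgb1 differ from each other was not tested.

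Itgav, the alpha subunit shared by Itgb3, Itgb5 and Itgb8, had a like pattern across the lines. It read 12.19, 12.19 and 12.001 with Ad-GFP in lines 2, 7 and 8 and 12.08, 12.36 and 12.27 with Ad-Cre, lower in line 2 and higher in lines 7 and 8. The difference was 0.11 ± 0.10 (SE; 95% interval -0.15 to 0.36; adjusted p = 0.682). Without line 2 it was 0.22 ± 0.06 (adjusted p = 0.113). Its 32 probe sets were split, 8 higher and 2 lower in every line and 22 mixed.

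Of the beta partners of Itgav, Itgb8 was lower in every line, while Itgb5 and Itgb3 did not share 1 direction over the lines. Whether these subunits differ from one another was not tested. Itgb8 is a subunit that with Itgav holds latent TGF-beta for activation, and in the embryonic brain it is made by radial glia. It read 12.98, 12.86 and 12.88 with Ad-GFP in lines 2, 7 and 8 and 12.82, 12.60 and 12.48 with Ad-Cre. Each line was lower with Ad-Cre, and the highest Ad-Cre array was just below the lowest Ad-GFP array. The difference was small, -0.28 ± 0.07 log2 units (SE; 95% interval -0.47 to -0.09; adjusted p = 0.252), a 1.21-fold lower signal. It read -0.16, -0.27 and -0.40 in lines 2, 7 and 8, and without line 2 it was -0.33 ± 0.06 (adjusted p = 0.0240). Of the 18 Itgb8 probe sets, 17 were lower in every line, where 16.5% of the array's probe sets were. An unadjusted p under 0.05 was found for 10, and 0 passed the adjusted p. The probe set that departed was the dimmest of the 18. The brightest read only -0.13.

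Itgb5, a vitronectin receptor subunit, read 11.23, 11.10 and 11.00 with Ad-GFP in lines 2, 7 and 8 and 11.31, 10.91 and 10.76 with Ad-Cre. Line 2 was higher and lines 7 and 8 were lower, the reverse of Itgav and Itgb1. The difference was -0.12 ± 0.10 (SE; 95% interval -0.38 to 0.15; adjusted p = 0.672). Without line 2 it was -0.21 ± 0.08 (adjusted p = 0.199). Itgb3, best known as a platelet and endothelial fibronectin and vitronectin receptor subunit, read 7.28, 7.50 and 7.21 with Ad-GFP and 7.54, 7.31 and 7.44 with Ad-Cre. Its difference was 0.10 ± 0.12 (SE; 95% interval -0.22 to 0.42; adjusted p = 0.767), higher in lines 2 and 8 and lower in line 7. Without line 2 the difference of Itgb3 was 0.019 ± 0.14 (SE). Of its 17 probe sets, 4 were higher and 2 lower in every line.

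Among the alpha subunits of laminin receptors, Itga3 was higher in every line, Itga6 had overlapping groups and Itga7 differed in opposite directions between lines. Itga3 read 6.71, 6.71 and 6.47 with Ad-GFP in lines 2, 7 and 8 and 7.47, 6.97 and 6.78 with Ad-Cre. The groups did not overlap, though the lowest Ad-Cre array was close to the highest Ad-GFP arrays. The difference was 0.44 ± 0.13 (SE; 95% interval 0.11 to 0.77; adjusted p = 0.294), at 0.76, 0.26 and 0.30 in lines 2, 7 and 8, and 0.28 without line 2. The Itga3 probe sets disagreed. Of 27, only 7 were higher in every line and 2 were lower, 10 lay below the lower quartile of signals, and the brightest read 0.22.

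Itga6, the alpha subunit of a laminin receptor that marks neural stem and progenitor cells, read 12.09, 12.16 and 12.29 with Ad-GFP in lines 2, 7 and 8 and 12.20, 12.21 and 12.27 with Ad-Cre. The 6 arrays lay within a narrow band and the groups overlapped. Its difference was 0.042 ± 0.070 (SE; 95% interval -0.14 to 0.22; adjusted p = 0.829). Without line 2 it was 0.0093 ± 0.059 (SE).

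Itga7, a laminin receptor subunit first known from muscle, gave the widest disagreement between lines. It read 10.99, 11.18 and 11.20 with Ad-GFP in lines 2, 7 and 8, a close group, and 11.73, 9.92 and 11.44 with Ad-Cre. The difference was -1.26 log2 units in line 7, against 0.74 and 0.23 in lines 2 and 8. The mean difference was -0.10 ± 0.39 (SE; 95% interval -1.11 to 0.92; adjusted p = 0.936), and without line 7 it was 0.49 ± 0.18 (adjusted p = 0.571). Without line 2 the mean difference was -0.52 ± 0.30 (SE). The probe sets agreed within lines. In line 7 every one of the 24 was lower, with a median of -1.27. The number higher was 23 in line 2 and 21 in line 8, with medians of 0.69 and 0.19. With 1 culture per line and virus, a difference between lines in the response to Cre could not be tested.

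**Figure D3:**
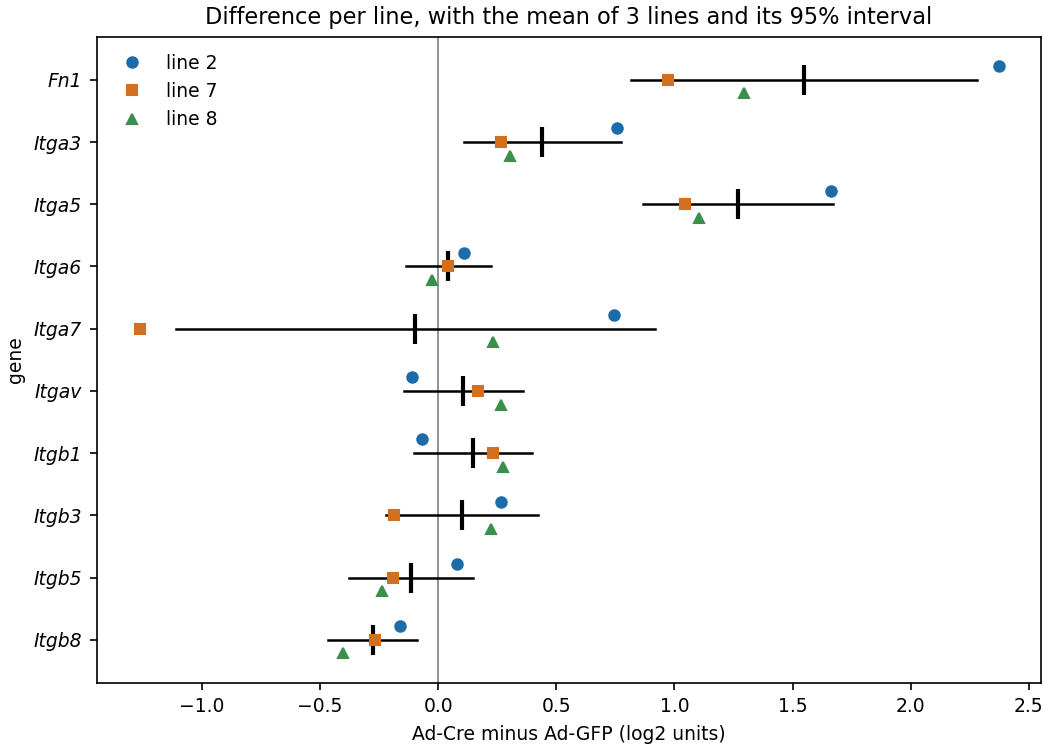
Ad-Cre minus Ad-GFP difference of each gene (log2 units) in line 2 (circles), line 7 (squares) and line 8 (triangles), with the mean of the lines (vertical tick) and its 95% interval from the limma fit (bar). The intervals of Fn1, Itga5 and Itga3 lie above 0, that of Itgb8 lies below 0, and the other 6 cross 0.

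The lines were also compared with the virus accounted for. In the moderated F test of the line terms none of the 10 passed an adjusted p of 0.05, and 0.00864% of all genes did. The line means of Fn1 spanned 1.12 log2 units, at 11.10, 10.35 and 9.98 in lines 2, 7 and 8, the widest span of the 10, and those of Itgb3 spanned 0.08, the narrowest. The wide span of Fn1 was largely that of its Ad-Cre arrays, since the Ad-GFP arrays lay within 9.33 to 9.91.

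Promoter sequence is shown for the integrin genes whose signal was higher (Itga5) or lower (Itgb8) with Ad-Cre in every line on most probe sets. RefSeq windows of the GRCm38.p6 build were matched by symbol for 6 of the 10 genes, in 7 windows. Each run below is the 250 bases before the start, 5′ to 3′ on the minus strand, with letters matching the SP1 motif GGGCGG or the NF-Y motif CCAAT, on either strand, in capitals. The Itga5 window lies at chr15:103366792-103367041 and the Itgb8 window at chr12:119238277-119238526.
Itga5: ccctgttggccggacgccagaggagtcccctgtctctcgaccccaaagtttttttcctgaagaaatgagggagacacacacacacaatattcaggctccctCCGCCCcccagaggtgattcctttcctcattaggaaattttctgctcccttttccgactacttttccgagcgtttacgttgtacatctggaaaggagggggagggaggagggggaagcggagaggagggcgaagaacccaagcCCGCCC
Itgb8: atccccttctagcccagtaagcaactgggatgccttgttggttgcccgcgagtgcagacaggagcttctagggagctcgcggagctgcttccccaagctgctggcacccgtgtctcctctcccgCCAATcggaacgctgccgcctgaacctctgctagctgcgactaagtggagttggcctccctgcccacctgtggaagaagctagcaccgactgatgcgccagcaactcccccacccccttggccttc

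The Itga5 window held 2 SP1 matches, at 149 and 6 bases before the start, and no NF-Y match. The Itgb8 window held 1 NF-Y match, at 126 bases, and no SP1 match. SP1 letters stood in 32.7% and NF-Y letters in 33.8% of all 32851 windows of this length, and the SP1 motif also stood in windows of Itga3, Itgb1 and Itgb5. None of the 7 windows held an AP-1 match (TGANTCA), a CRE match (TGACGTCA) or a p53 decamer, which stood in 6.75%, 1.55% and 7.13% of all windows. E-box letters (CANNTG) stood in 66.2% of windows, among them Itga3, Itga5, Itgb5 and Itgb8. These counts describe the letters in these windows alone.

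The genes around the 10 were read in 5 lists, which overlap and so are not separate counts. Tgfb1 stands among both the matrix ligands and the TGF-beta genes, and Ltbp1 among both the assembly and the TGF-beta genes. Col1a1, Vwf and Itgam also stand in the cell type marker lists. At an unadjusted p under 0.05 over all 3 lines, 7.04% of all genes were higher and 5.58% lower. Each count over the 3 lines stands against those shares. Of the other integrin subunits, 17 genes with all measured, 2 were higher and 1 was lower, with a median of 0.037. Without line 7 there were 0 higher by limma. Itga1, a collagen receptor subunit, read 0.72 ± 0.23 log2 units (SE; adjusted p = 0.324), at 1.33, 0.66 and 0.16 in lines 2, 7 and 8, and 0.41 without line 2. Itga2, another collagen receptor subunit, read -0.92 ± 0.27 (adjusted p = 0.301), at -0.41, -0.62 and -1.72. On the brightest probe set Itga1 read 0.10 and Itga2 read -0.21. Itga2b, the platelet fibrinogen receptor subunit, read 0.41 ± 0.12 (adjusted p = 0.294). Itga4, a second fibronectin receptor subunit singled out after its values were seen, went -0.97, 1.76 and 0.31 in lines 2, 7 and 8.

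Adaptors and focal adhesion genes, which link integrin tails to actin and to signalling, read both ways. Of 30 measured genes, 5 were higher and 4 lower at an unadjusted p under 0.05, with a median of 0.066. Zyx, zyxin, a protein of mature adhesions, read 0.51 ± 0.13 (SE; adjusted p = 0.232). Lims2, a PINCH adaptor that binds integrin-linked kinase, read -1.37 ± 0.21 (adjusted p = 0.116), at -1.44, -1.85 and -0.82 in lines 2, 7 and 8. Dab2, an adaptor that takes integrins into endocytosis, read -0.98 ± 0.22 (adjusted p = 0.198), and the kinase Src read -0.34 ± 0.09 (adjusted p = 0.249). The number of higher genes was 2 without line 7 and 1 without line 8, and the number of lower genes was 2 without line 7.

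Other matrix ligands of integrins had 8 higher and 2 lower genes at an unadjusted p under 0.05 among 32 measured, with a median of 0.088. Hspg2, the basement membrane proteoglycan perlecan, read 0.84 ± 0.14 log2 units (SE; adjusted p = 0.120), at 1.15, 0.77 and 0.61 in lines 2, 7 and 8. Lama5, a laminin alpha chain, read 0.49 ± 0.09 (adjusted p = 0.152). Npnt, nephronectin, an RGD ligand of Itga8, read 1.37 ± 0.32 (adjusted p = 0.219) and was largest in line 8, at 2.35. Edil3, a secreted ligand of Itgav receptors, read -0.96 ± 0.16 (adjusted p = 0.120). The number of higher genes was 3 without line 7 and 5 without line 8. The number of lower genes was 4 without line 2 and 1 without line 8.

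Of 20 genes for fibronectin assembly and integrin co-receptors, 5 were higher and 0 lower at an unadjusted p under 0.05 by limma, with a median of 0.044, and 0 passed the adjusted p. Without line 2 the counts were 6 higher and 4 lower, and without line 7 the number higher was 3. Cd44, the hyaluronan receptor, read 0.52 ± 0.11 log2 units (SE; adjusted p = 0.187). The tetraspanins Cd151, which binds laminin receptors directly, and Cd81 read 0.87 ± 0.26 (adjusted p = 0.302) and 0.23 ± 0.06 (adjusted p = 0.269). Cd151 was largest in line 2, at 1.65, against 0.50 and 0.46, and read 0.48 without it. Ltbp1, a latent TGF-beta binding protein that attaches to fibronectin matrix, read 0.63 ± 0.23 (adjusted p = 0.369), at 1.25, 0.52 and 0.13 in lines 2, 7 and 8, and 0.33 without line 2. Of the syndecans, which help integrins bind fibronectin, Sdc4 read -0.21, 0.44 and 0.90 in lines 2, 7 and 8, and was singled out after its values were seen.

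The TGF-beta ligands and the proteins that hold them latent had the highest median of these lists, 0.39 over 9 genes. Itgav with Itgb8 binds the latent forms of Tgfb1 and Tgfb3, while the latency peptide of Tgfb2 lacks the RGD site. At an unadjusted p under 0.05, 5 were higher and 0 lower by limma, with 0 past the adjusted p. The number higher was 3 without line 7, without line 8, on the mean of probe sets and on the brightest probe set. Tgfb3 read 1.30 ± 0.29 log2 units (SE; adjusted p = 0.198), at 2.14, 0.80 and 0.95 in lines 2, 7 and 8. Tgfb2 read 0.74 ± 0.25 (adjusted p = 0.347), at 1.46, 0.22 and 0.54, and 0.38 without line 2. Tgfb1 read 0.29 ± 0.09 (adjusted p = 0.304) but -0.013 on its brightest probe set, and the binding protein Ltbp4 read 0.59 ± 0.11 (adjusted p = 0.149). By line the list's median was 0.80, 0.30 and 0.23 for 2, 7 and 8.

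**Figure D4:**
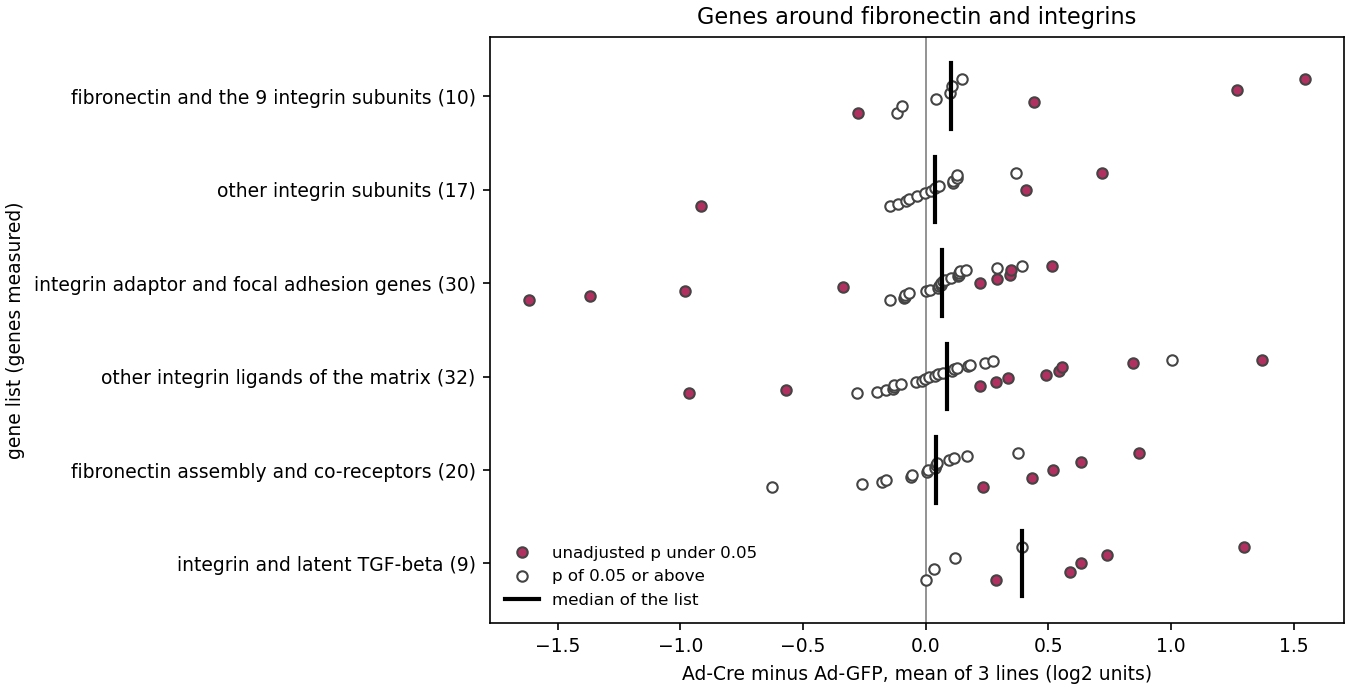
Mean Ad-Cre minus Ad-GFP difference over 3 lines (log2 units) of each gene in the member list and in 5 gene lists around it; filled points had an unadjusted p under 0.05 and black bars are list medians. Fn1 and Itga5 lie farthest right in the top list, and the latent TGF-beta list has the median farthest from 0, at 0.39.

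Fibronectin is also a product of fibroblasts and vessel-associated cells, so their markers are given beside it. Of 10 fibroblast, meningeal and pericyte markers, 2 were higher and 2 lower at an unadjusted p under 0.05, and 1 was higher without line 2. Of all genes, 7.04% were higher and 5.58% lower at that p over the 3 lines. Col1a1 and Foxc1 read 0.33 and 0.83, and Pdgfrb and Acta2 read -0.61 and -2.35. Their summed linear signal was 2671 to 5998 on the Ad-GFP arrays and 2294 to 2581 on the Ad-Cre arrays. Acta2 made up that difference. Without it, a choice made after its values were seen, the sum was 1554 to 1664 with Ad-GFP and 1970 to 2064 with Ad-Cre, higher in every line. Over the 10 markers the median difference was 0.11, with 4 higher and 2 lower in every line, where 22.1% of all genes were higher and 16.2% lower. Dcn, Lum and Rgs5 lay below the lower quartile of all genes. Of 8 endothelial markers 1 was higher, the dim Emcn, and their summed signal was 811 to 853 with Ad-GFP and 863 to 954 with Ad-Cre. Of 8 microglia or macrophage markers 1 was higher, Cd68, with sums of 1255 to 1349 and 1417 to 1518. With 8 genes in a list, a count of 1 is near the share of all genes. Without line 2 the endothelial count was 3, and without line 7 or line 8 the microglia or macrophage count was 0 by limma.

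Markers of neural lineages were read at the same unadjusted p, at which 7.04% of all genes were higher and 5.58% lower. With 6 or 7 genes in a list, a count of 1 is near those shares. Of 6 neuron markers, 2 were lower and 1 higher. Dcx, a microtubule protein of young neurons, read -1.80, and Snap25, a synaptic vesicle fusion protein, read -2.45, while Rbfox3 read 0.39. Their summed linear signal was 11680 to 13422 with Ad-GFP and 10388 to 11246 with Ad-Cre. Of 6 astrocyte markers, 3 were lower and 1 higher, with Aldh1l1 at -1.66, Aqp4 at -1.36, Gja1 at -0.77 and S100b at 0.61, and sums of 8819 to 12623 and 4380 to 9293. Of 7 measured oligodendrocyte lineage markers, 1 was lower, the progenitor receptor Pdgfra at -2.72, with sums of 26477 to 27572 and 21153 to 26493. The neural stem cell sums were 82827 to 83636 with Ad-GFP and 76127 to 90793 with Ad-Cre. Without line 2 there were 5 lower astrocyte markers, 0 higher, and 2 lower oligodendrocyte lineage markers. The single higher astrocyte marker was not called without line 8, nor the higher neuron marker without line 7 or line 8. None of these genes passed the adjusted p over all lines. The part of other cells in the Fn1 and Itga5 values was not tested, and in bulk RNA more cells of a type and more RNA per cell cannot be told apart.

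The genes most like Fn1 over the 6 arrays, by Pearson correlation among the 1164 others with an SD of at least 0.5, were Nupr1, Cacna2d3, Adamts12, Map2k1 and Stard10, at r of 0.998 to 0.993. Each of these was highest on the line 2 Ad-Cre array, as Fn1 was. Those most like Itga5 were Ier5l, Ebf3, Nt5dc3, Phlda3 and Ube2ql1, at r of 0.992 to 0.978. Nupr1 read 2.74, 1.03 and 1.73 log2 units in lines 2, 7 and 8, and Ier5l read 1.30, 0.86 and 1.06. With 6 arrays that share the virus contrast, such values only describe the pattern.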

How the data were processed

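Total RNA of 6 cultures was read on 1 Affymetrix array each. Per the submitters' processing notes, Affymetrix Expression Console and RMA were used, and the values deposited by the authors are log2 signals, 1 for each probe set and array. RMA equalises the signal distribution over arrays, which would hide a shift common to most genes. The sources used here state no version, setting or build.

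Titles and transduction labels gave the virus. The description field runs the other way for line 8, and its labels were exchanged as an alternative. GEO's platform annotation gives 1 symbol to 233753 probe sets, several to 5106 and none to 30892. Those with 1 symbol were summarised per gene by median polish (at most 20 iterations). The virus effect was fitted in R 4.3.3 with limma 3.58.1, the line being a fixed block and the variance having a trend. Tests were two-sided, and p-values were adjusted by Benjamini-Hochberg across the 23152 genes. The same fit was run on single probe sets. The gene fit was tested on data simulated from means of probe sets, not from median polish values. Median polish was tested separately on 1 simulated gene. Each line received each virus, which pairs the arrays, and same-numbered arrays deviated together (r of 0.226, 0.163 and 0.333 for lines 2, 7 and 8). Each p of the virus effect rests on how far the Ad-Cre minus Ad-GFP difference varied between lines. The variance was moderated by that of all genes, and there was 1 culture per line and virus.

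Members and lists were chosen with earlier results of these data known. All 10 members are named, with up to 4 genes per list by lowest p under 0.05 and the 5 genes most correlated with Fn1 and with Itga5. Other settings were the probe set summary, dim filters, normalization, the block, variance moderation and each line left out. The protein features planned were not analysed here.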

Additional observations from a re-analysis of the deposited data

Results flagged for a closer look

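In 6 of the 10 genes the lines went opposite ways, as they did in 61.7% of all genes. With 1 culture per line and virus, the difference between lines was not tested. The gap between the highest and the lowest line was 2.01 log2 units for Itga7, where line 7 was lower and lines 2 and 8 higher. It was 0.45 for Itgb3, with line 7 lower as well. For Itgav and Itgb1 the gaps were 0.38 and 0.35, with line 2 lower and the others higher. For Itgb5 it was 0.32, with line 2 higher and the others lower, and for Itga6 0.13, with line 8 lower. Groups of 3 arrays are too small for a test of single arrays.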

How the results depend on the processing

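Outside the exchange of the line 8 labels, 13 alternatives were run. In all 13 Fn1, Itga3 and Itga5 stayed higher and Itgb8 lower. Over them Fn1 ranged from 1.13 to 1.83, Itga5 from 0.67 to 1.38, Itga3 from 0.22 to 0.53 and Itgb8 from -0.33 to -0.13. With 1 line left out at a time, Fn1 ranged from 1.13 to 1.83, Itga5 from 1.07 to 1.38 and Itga7 from -0.52 to 0.49. In those fits 3 to 5 of the 10 genes were higher and 0 to 2 lower at an unadjusted p under 0.05, and 0 to 3 passed the adjusted p. The count over all genes ran from 0 to 1211, the latter without line 2. Leaving out 1 array removes its line from the blocked fit, so only pairs were left out.

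With no replicate block, 82 genes passed and 0 of the 10 did. The random block gave 241 genes and 1 of the 10, Itga5 at 1.27, and the mean of probe sets gave 73 genes and 0 of the 10. On the brightest probe set 0 of the 10 were lower at an unadjusted p under 0.05, Tgfb1 read -0.013, Pdgfrb 0.025, Prom1 0.11 and Rbfox3 -0.39. The summed signal of the fibroblast, meningeal and pericyte markers read -0.71 log2 units with Ad-Cre and 0.31 without Acta2, a choice made after its values were seen. With line 8 exchanged, 0 of the 10 were higher or lower at that p. Itgav then read -0.070, Itgb1 -0.037, Itgb3 -0.049, Itgb5 0.043, Itga2 0.23 and Npnt -0.19, while Fn1 read 0.68 and Itga5 0.53. The cause of these changes was not tested.

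RMA signals hold background, so differences of genes with low signal can be understated. Itga3 and Itgb3 had the lowest signals of the 10, though both were above the lower quartile of all genes.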
